A study of Mus musculus with 6 samples.

Results

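The 10 genes of insulin-like growth factor (IGF) signalling described here were measured in mouse soleus muscle. They were the rows of the deposited tables with the symbols Igf1, Igf1r, Insr, Irs1, Irs2, Igfbp3, Igfbp4, Igfbp5, Igfbp6 and Igfbp7, which makes 10 of 21572 symbols. The 6 libraries formed 3 groups of 2, each of polyadenylated RNA from the soleus, a slow muscle of the hindlimb, of adult C57BL/6 mice. The groups were soleus of Dach2-/-/Hdac9-/- mice denervated for 3 days, soleus of wild-type (WT) mice denervated for 3 days, and innervated WT soleus. Hdac9 encodes a histone deacetylase and Dach2 a co-factor of transcription. No innervated knockout muscle was analysed here, and which exons the deletions affect was not given in the sources used here. Levels are the authors' FPKM (fragments per length of transcript and per library depth), which are per length and so allow genes to be compared. Changes are given on the log2 scale with their SE, from the quasi-likelihood test of edgeR on raw fragments. A gene was called where its p, adjusted by Benjamini-Hochberg over the 12247 genes of mean FPKM of at least 0.5, was under 0.05. All 10 genes passed that filter.

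IGF1 and insulin bind related receptor tyrosine kinases, encoded by Igf1r and Insr. The activated receptors phosphorylate the docking proteins IRS1 and IRS2, which recruit PI3 kinase and so turn on Akt and mTOR, the route by which muscle raises protein synthesis and holds back FoxO-driven atrophy genes. IGF binding proteins are secreted proteins that hold IGFs in the blood and between cells, and they can prolong IGF life or keep IGFs from the receptor.

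Libraries held 25529434 to 46305449 fragments. The innervated and denervated libraries separated on the first principal component (74.5% of the variance). Denervated WT replicate 2 was at 38.7 on the second (12.8%), apart from the other 5, which lay between -24.9 and 8.68. Dach2 was at 0.961 and 0.681 FPKM in the libraries labelled Dach2-/-/Hdac9-/-, 0.519 and 0.536 FPKM in denervated WT and 3.85 and 4.29 FPKM in innervated WT. Hdac9 was at 0.534 and 0.181 FPKM in the labelled knockouts, 1.83 and 0.285 FPKM in denervated WT and 4.10 and 3.14 FPKM in innervated WT. Dach2 was thus not lower than in WT muscle of equal treatment. A level over a whole gene does not check a deletion of some exons, so the group is called DKO-labelled (double knockout) below. Myog, which encodes myogenin and is raised by denervation, was at 212 and 328 FPKM in DKO-labelled, 124 and 418 FPKM in denervated WT and 8.02 and 7.32 FPKM in innervated WT libraries. The skeletal muscle markers Ckm and Ttn were present in every library, whereas Acta1 was listed at 0 in all 6, which can be a failed estimate.

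Igfbp4, Igfbp5, Igfbp6 and Igfbp7 had higher FPKM than the ligand, receptor and IRS genes in every library. Igfbp5 was at 123 and 110 FPKM in DKO-labelled, 133 and 22.9 FPKM in denervated WT and 97.6 and 58.0 FPKM in innervated WT libraries. Igfbp7, a relative that binds IGFs weakly, was at 114 and 78.4 FPKM in DKO-labelled, 104 and 52.6 FPKM in denervated WT and 105 and 115 FPKM in innervated WT libraries. Igfbp5 was the highest of the 10 genes in both DKO-labelled libraries and in denervated WT replicate 1, and Igfbp7 was the highest in the other libraries. Igf1r, which encodes the main IGF1 receptor, lay between 2.09 and 2.54 FPKM in all 6 libraries. The values of the 10 genes in every library are plotted by group.

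**Figure D1:**
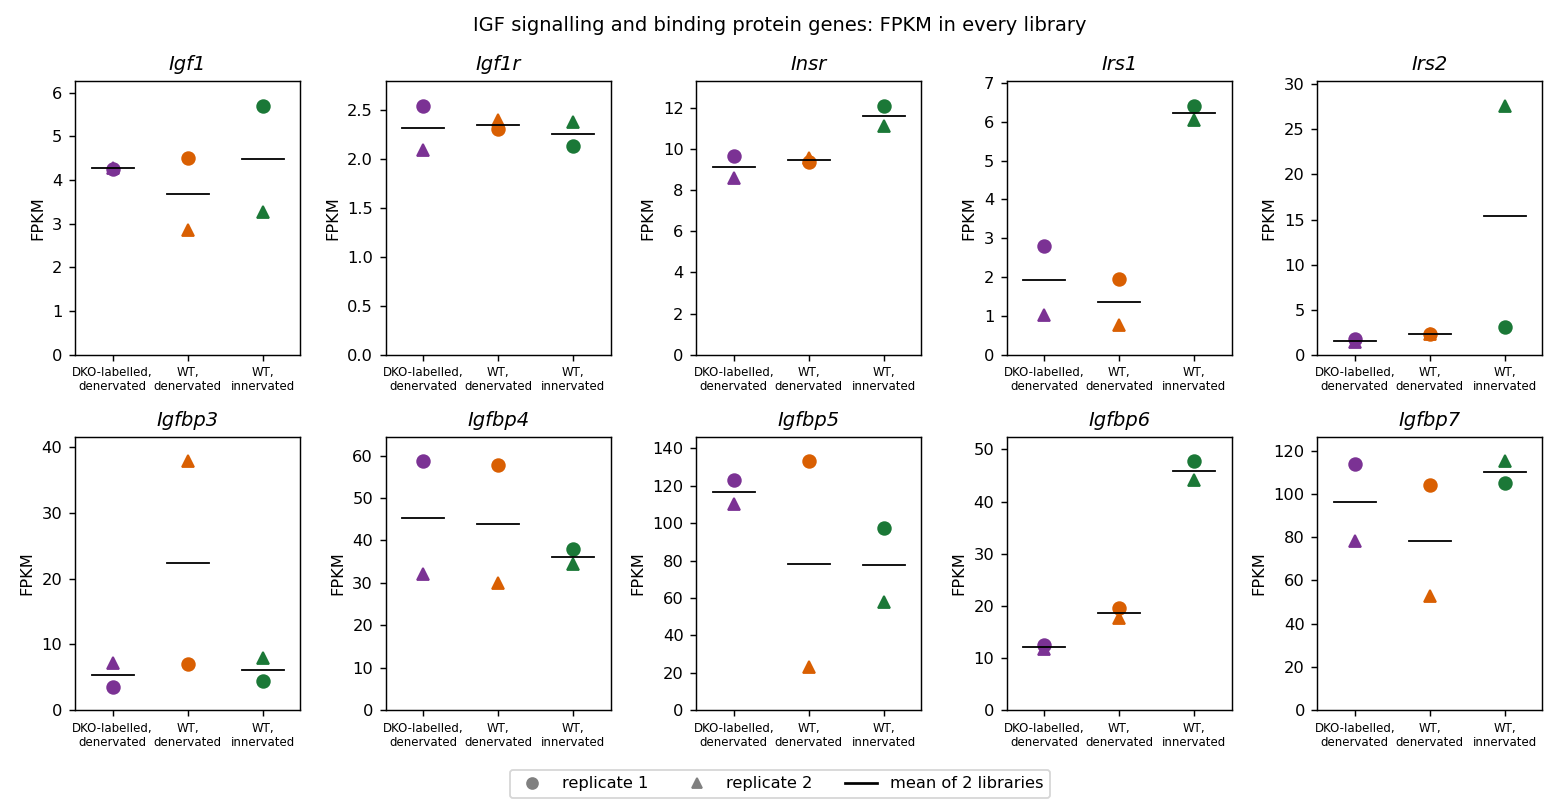
FPKM (vertical axis, from 0, a separate scale in each panel) of the 10 IGF genes in each library. Circles are replicate 1, triangles replicate 2 and bars the mean of the 2 libraries of a group. Irs1 and Igfbp6 stand lower in all 4 denervated libraries than in both innervated ones, Irs2 is high in innervated WT replicate 2 alone (27.6 FPKM), and Igfbp3 is high in denervated WT replicate 2 alone (37.8 FPKM).

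The comparison of denervated with innervated WT soleus asked what loss of the nerve changes. Igfbp6 and Irs1 fell and the other 8 genes did not pass the test. Those 2 of 10 genes (20.0%) stand against 28.7% of all genes tested, and 14.4% of all genes tested were called higher and 14.3% lower. The share of the 10 genes that changed was therefore no larger than that of all genes. An unadjusted p under 0.05 was found for 4 of the 10 and for 43.9% of all genes tested. Overlap of groups was judged on fragments per library scaled by TMM, on which the test also runs. Without overlap by that scale were 4 of 10 genes, Insr, Irs1, Irs2 and Igfbp6, all lower in denervated muscle, against 70.6% of all genes tested. These 4 genes were also lower in all 4 denervated libraries, DKO-labelled included, than in both innervated ones, as were 31.0% of all genes tested. The median log2 change of the 10 genes was -0.28, beside 0.00 over all genes tested. Across whole muscle, fewer cells of a type and less RNA per cell cannot be told apart.

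Igfbp6 encodes a binding protein that prefers IGF2 to IGF1. It was at 19.7 and 17.6 FPKM (18.6 ± 1.46, SD, n = 2) in denervated WT libraries, against 47.7 and 44.2 FPKM (46 ± 2.48, SD, n = 2) in innervated WT libraries. The raw values behind these were 1620 and 936 fragments in denervated WT and 2151 and 1502 fragments in innervated WT. The groups did not overlap, and replicates of a group differed by at most 1.12 times. Igfbp6 fell by 1.21 ± 0.15 on the log2 scale (2.32-fold lower, edgeR adjusted p = 0.00476). The fall was 1.20 and 1.23 on the log2 scale in runs 1 and 2 of consecutive sample numbers taken apart, each with 1 library of a group and so without a test. The edgeR adjusted p was 0.0576 without innervated WT replicate 1 and 0.0582 without replicate 2, at log2 changes of -1.15 and -1.27. In those 2 fits the calls over all genes came to 468 and 202. The gene lies at chr15:101974616-101979943 on mm9 as the files list it. The promoter is shown because Igfbp6 was called in both comparisons with innervated WT. It is the RefSeq window of 250 bases before to 50 after the start, chr15:102143936-102144235 on the plus strand of GRCm38.p6. None of the motifs searched below lay in it.
Igfbp6: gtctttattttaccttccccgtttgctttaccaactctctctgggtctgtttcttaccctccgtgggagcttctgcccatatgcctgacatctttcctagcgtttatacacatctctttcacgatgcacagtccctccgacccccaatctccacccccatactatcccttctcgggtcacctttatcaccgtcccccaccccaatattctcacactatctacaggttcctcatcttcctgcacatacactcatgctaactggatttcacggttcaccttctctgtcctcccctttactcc

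Irs1 fell in denervated WT muscle. It was at 1.95 and 0.759 FPKM (1.36 ± 0.845, SD, n = 2) there, against 6.41 and 6.04 FPKM (6.22 ± 0.262, SD, n = 2) in innervated WT. The corresponding fragments were 1197 and 300 in denervated WT and 2211 and 1570 in innervated WT. Both denervated libraries lay below both innervated ones, and the denervated libraries differed from each other by 2.57 times. The fitted log2 change was -2.15 ± 0.57 (4.43-fold lower, edgeR adjusted p = 0.0347), with -1.68 in run 1 and -2.93 in run 2 taken apart. The call was lost without innervated WT replicate 1 (-2.10, adjusted p = 0.140), without innervated WT replicate 2 (-2.20, 0.136) and without denervated WT replicate 2 (-1.63, 0.0792). Without denervated WT replicate 1 the change was -2.99 (adjusted p = 0.0111).

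Irs2, the other main IRS docking protein of muscle, did not pass the test. It was at 2.25 and 2.28 FPKM in denervated WT libraries, against 3.12 and 27.6 FPKM in innervated WT libraries. The denervated libraries were nearly equal, and innervated WT replicate 2 was 8.84 times higher than its partner. The log2 change was -2.65 ± 0.87 (edgeR adjusted p = 0.0624). It came to -0.36 without innervated WT replicate 2 (adjusted p = 0.455) and to -3.49 without replicate 1 (adjusted p = 0.0189). DESeq2 called the gene at an adjusted p of 0.0437. Irs1 over Irs2, as a ratio of FPKM, was 0.868 and 0.332 in denervated WT, against 2.06 and 0.219 in innervated WT.

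The promoters of Irs1 and Irs2 are shown because both genes were lower in all 4 denervated libraries than in both innervated ones. They are RefSeq windows of 250 bases before to 50 after the start on GRCm38.p6, chr1:82291390-82291689 for Irs1 and chr8:11008880-11009179 for Irs2, both on the minus strand. The files place the genes at chr1:82229679-82288014 and chr8:10986963-11008430 on mm9. Capitals mark CACGTG, an E-box of the kind that bHLH zipper factors bind, 115 bases before the start of Irs1 and 44 before that of Irs2. This motif reads the same on both strands and was searched after these sequences had been read. It was present in 2 of the 9 promoters available for the 10 genes and in 7.15% of 32851 promoters of the same length. The run gtCACGTGtt of 10 letters is shared by Irs1 and Irs2 and was present in 25 promoters. Irs1 and Irs2 also share tgttttgctc, a run of equal length, which was not counted over all promoters. It is not a separate stretch, since it overlaps gtCACGTGtt in both promoters and begins inside CACGTG in Irs1. CAGCTG, the E-box letters favoured by myogenic factors such as myogenin, reads the same on both strands, overlaps no other motif searched and was present only in the Igf1 promoter among the 9 and in 16.3% of all promoters. TGTTTAC or its reverse complement GTAAACA, forkhead letters, was present in none of the 9 and in 3.65% of all promoters. A match is a description of these letters, and what binds there was not measured.
Irs1: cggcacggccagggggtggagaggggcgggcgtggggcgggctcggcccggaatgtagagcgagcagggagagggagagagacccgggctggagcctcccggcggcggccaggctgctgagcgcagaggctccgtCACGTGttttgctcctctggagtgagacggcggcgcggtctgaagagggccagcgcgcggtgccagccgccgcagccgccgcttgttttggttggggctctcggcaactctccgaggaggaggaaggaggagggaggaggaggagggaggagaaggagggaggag
Irs2: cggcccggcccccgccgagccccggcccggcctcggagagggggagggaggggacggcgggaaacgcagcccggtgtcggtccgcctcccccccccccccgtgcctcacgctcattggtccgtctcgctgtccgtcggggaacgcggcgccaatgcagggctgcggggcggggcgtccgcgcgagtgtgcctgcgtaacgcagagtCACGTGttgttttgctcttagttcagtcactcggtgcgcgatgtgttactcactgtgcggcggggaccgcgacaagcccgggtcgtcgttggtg

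Insr, which encodes the insulin receptor, was at 9.35 and 9.56 FPKM in denervated WT, against 12.1 and 11.1 FPKM in innervated WT. The groups did not overlap, but the log2 change of -0.25 ± 0.14 did not pass the test (edgeR adjusted p = 0.220). Igf1r was at 2.30 and 2.40 FPKM in denervated WT and 2.13 and 2.38 FPKM in innervated WT, with a log2 difference of 0.10 ± 0.16 (adjusted p = 0.653). Igf1, the ligand that muscle also makes itself, was at 4.51 and 2.85 FPKM in denervated WT and 5.70 and 3.26 FPKM in innervated WT. The groups overlapped, and the log2 difference was -0.30 ± 0.35 (adjusted p = 0.545). As a ratio of FPKM, Insr over Igf1r was 4.07 and 3.98 in denervated WT and 5.67 and 4.65 in innervated WT.

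The other 4 binding protein genes did not pass the test in this comparison. Igfbp3, which carries most IGF in blood, was at 7.0 and 37.8 FPKM in denervated WT and 4.40 and 7.92 FPKM in innervated WT. The log2 change was 1.91 ± 0.78 (edgeR adjusted p = 0.108), and with the runs as a block it was 1.57 (adjusted p = 0.0285), past the threshold. Without denervated WT replicate 2 the log2 change was 0.23 (adjusted p = 0.761), and without replicate 1 it was 2.66 (adjusted p = 0.00651). Igfbp4, which is cleaved by the protease PAPP-A, was at 57.7 and 29.9 FPKM in denervated WT and 37.9 and 34.4 FPKM in innervated WT (log2 change 0.35 ± 0.37, adjusted p = 0.503). Igfbp5 had a log2 change of 0.06 ± 0.71 (adjusted p = 0.956), and of -1.70 without denervated WT replicate 1 (adjusted p = 0.0118) but 0.83 without replicate 2 (adjusted p = 0.109). Igfbp7 did not overlap between the groups as FPKM (104 and 52.6 in denervated WT, 105 and 115 in innervated WT), but its scaled fragments did. It had a log2 change of -0.43 ± 0.33 (adjusted p = 0.353), and of -1.01 without denervated WT replicate 1 (adjusted p = 0.0207). Denervated WT replicate 2 was thus the library in which Igfbp3 was highest and Igfbp5 and Igfbp7 were lowest of all 6.

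As shares of the FPKM summed over Igfbp3 to Igfbp7, Igfbp6 was smaller in every denervated library than in both innervated ones. It made up 4.0% and 4.89% of the sum in DKO-labelled, 6.13% and 11.0% in denervated WT and 16.3% and 17.0% in innervated WT libraries. Igfbp3 took 23.5% in denervated WT replicate 2, against 1.16% to 3.05% in the other 5 libraries. Igfbp5 took 14.2% in that library and 22.3% to 46% in the others. The summed level was 312 and 240 FPKM in DKO-labelled, 321 and 161 FPKM in denervated WT and 293 and 260 FPKM in innervated WT, so denervated WT replicate 2 had the lowest sum. These shares are a description and were not tested.

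**Figure D2:**
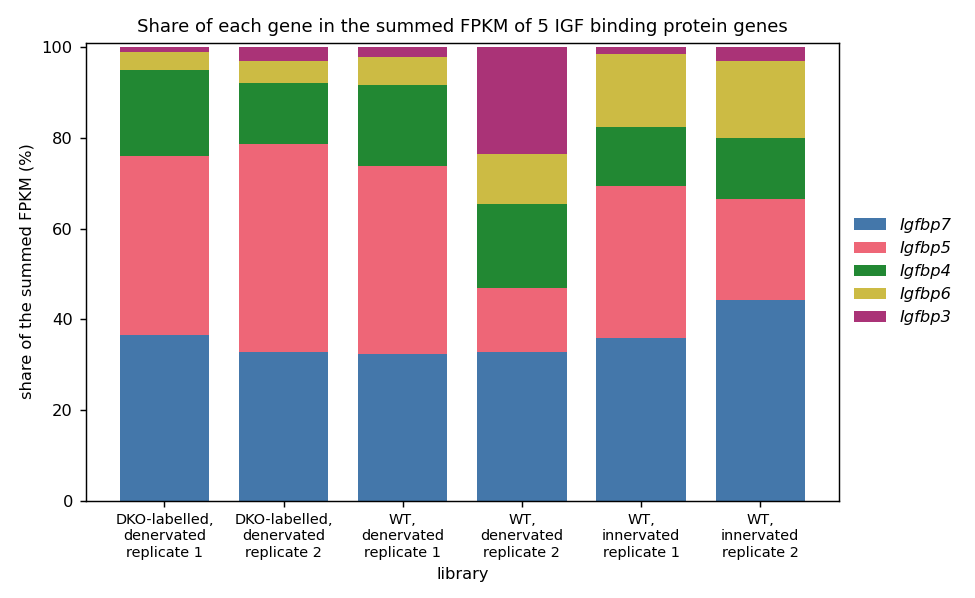
Share (vertical axis, %) that each of 5 binding protein genes takes of their summed FPKM in each library, groups left to right as labelled. The Igfbp6 band is 16.3% and 17.0% in innervated WT and 11.0% or less elsewhere, and the Igfbp3 band reaches 23.5% in denervated WT replicate 2.

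The comparison of DKO-labelled with WT soleus, both denervated, asked what Dach2 and Hdac9 change in denervated muscle. None of the 10 genes passed edgeR's test, nor did DESeq2 or limma call any, and 2 had an unadjusted p under 0.05. Over all genes tested, 5 were called (0.0408%), 0.0245% higher and 0.0163% lower, and 6.11% had an unadjusted p under 0.05. Groups without overlap were Igfbp6 and Irs2, 2 of 10 genes, against 28.5% of all genes tested. Igfbp6 was at 12.5 and 11.7 FPKM (12.1 ± 0.530, SD, n = 2) in DKO-labelled, against 19.7 and 17.6 FPKM in denervated WT, a log2 difference of -0.57 ± 0.15 (edgeR adjusted p = 0.476). In runs 1 and 2 taken apart it was -0.61 and -0.54, and it lay between -0.64 and -0.49 when each library was left out in turn. Irs2 was at 1.72 and 1.41 FPKM in DKO-labelled, against 2.25 and 2.28 FPKM in denervated WT (log2 -0.45 ± 0.84, smaller than its SE). Both genes were thus lower in each DKO-labelled library than in each denervated WT library, without a call. A p that misses the threshold does not show that the groups are alike.

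Igfbp3 was at 3.61 and 7.17 FPKM in DKO-labelled, against 7.0 and 37.8 FPKM in denervated WT. The log2 difference of -2.05 ± 0.78 (edgeR adjusted p = 0.770) became -0.36 without denervated WT replicate 2. Igfbp5 was at 123 and 110 FPKM in DKO-labelled and 133 and 22.9 FPKM in denervated WT, with a log2 difference of 0.59 ± 0.71. It became 2.35 without denervated WT replicate 1 (adjusted p = 0.0547) and -0.18 without replicate 2. For both genes the sign or size of the difference thus went with denervated WT replicate 2. Irs1 was at 2.80 and 1.03 FPKM in DKO-labelled, against 1.95 and 0.759 FPKM in denervated WT, with a log2 difference of 0.50 ± 0.55, which was -0.39 without DKO-labelled replicate 1 and 1.34 without denervated WT replicate 1. The other 5 genes had log2 differences between -0.07 (Insr) and 0.36 (Igfbp7), and their groups overlapped.

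**Figure D3:**
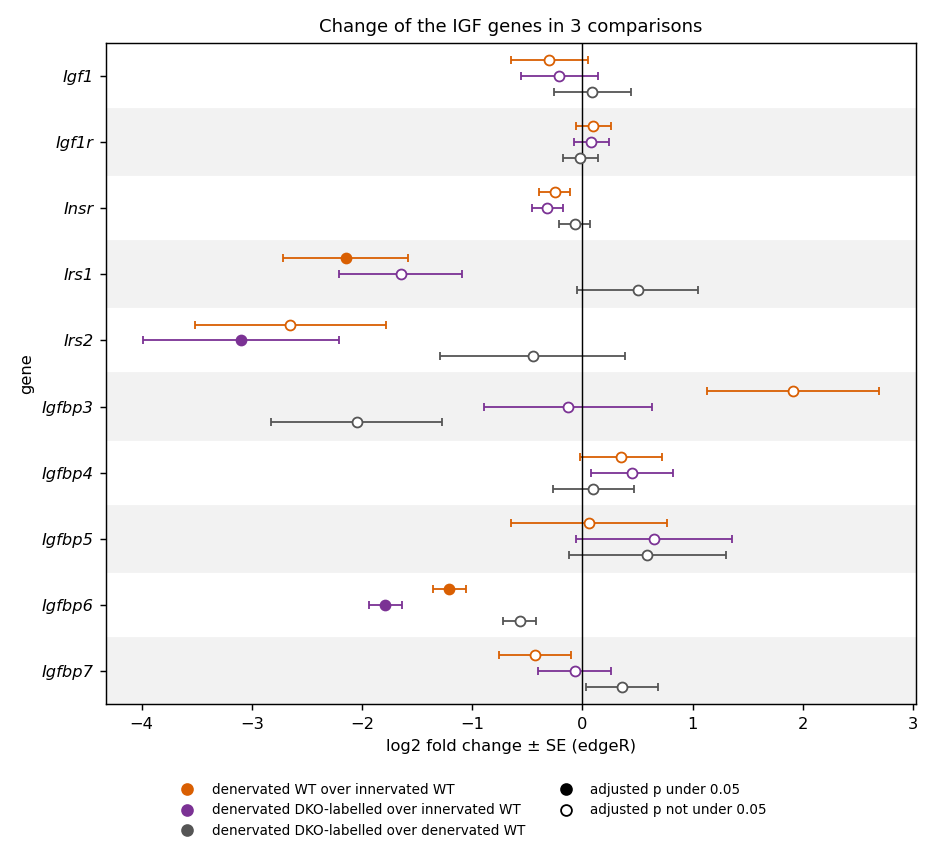
Log2 fold change ± SE (horizontal axis, edgeR) of the 10 IGF genes in the comparisons named in the legend, with filled points for an adjusted p under 0.05. Igfbp6 is filled in both comparisons with innervated WT at -1.21 and -1.79, and no point is filled between the denervated groups.

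DKO-labelled denervated soleus was also set against innervated WT, which differs in both genotype and nerve. This comparison uses the same innervated libraries as the one of denervated with innervated WT. Igfbp6 and Irs2 fell, 2 of 10 genes (20.0%), against 31.4% of all genes tested (15.2% higher, 16.2% lower). An unadjusted p under 0.05 was found for 3 of the 10 and for 44.8% of all genes tested. Groups without overlap were 5 of 10, Igfbp5 higher and Insr, Irs1, Irs2 and Igfbp6 lower, against 76.4% of all genes tested. Igfbp6 was 3.45-fold lower (log2 -1.79 ± 0.15, edgeR adjusted p = 0.00163), and it was called in all 19 alternatives run. Irs2 was at 1.72 and 1.41 FPKM in DKO-labelled, against 3.12 and 27.6 FPKM in innervated WT (log2 -3.10 ± 0.89, 8.57-fold lower, adjusted p = 0.0407). That call rested on innervated WT replicate 2, without which the log2 change was -0.81 (adjusted p = 0.143). With the runs as a block it was also lost (log2 -2.68, adjusted p = 0.0533), and it was lost without either DKO-labelled library (adjusted p = 0.136 and 0.192). All 4 limma fits lost it too (adjusted p = 0.0972 at a pseudocount of 0.5). Irs1 was at 2.80 and 1.03 FPKM in DKO-labelled, against 6.41 and 6.04 FPKM in innervated WT (log2 -1.65 ± 0.56, adjusted p = 0.0660). With the runs as a block Irs1 passed (log2 -1.86, adjusted p = 0.0104), and it was called in 10 of 19 alternatives, among them DESeq2 (0.00634) and limma at a pseudocount of 0.5 (0.0461). Its log2 change was -2.54 without DKO-labelled replicate 1 (adjusted p = 0.0444) and -1.11 without replicate 2 (adjusted p = 0.242). The other 7 genes ran from -0.32 (Insr) to 0.65 (Igfbp5) on the log2 scale.

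The rest of the pathway was read from 64 listed genes, of which 55 passed the filter. In denervated against innervated WT, 10 rose and 5 fell, 27.3% of those tested against 28.7% of all genes. Of the Akt, mTOR and target genes, 6 of 18 rose and 1 fell. Akt2, an Akt kinase prominent in insulin-responsive tissue, was at 128 and 161 FPKM in denervated WT, against 63.3 and 59.6 FPKM in innervated WT (log2 1.30 ± 0.19). Mtor, the kinase itself, was at 17.2 and 18.2 FPKM in denervated WT, against 7.88 and 8.25 FPKM in innervated WT (log2 1.22 ± 0.21). Eif4ebp1, a repressor of cap-dependent translation that mTOR inactivates, was 4.25-fold higher, at 145 and 284 FPKM in denervated WT, against 43.1 and 64.7 FPKM in innervated WT. The others that rose were Akt1 (log2 0.94), the ribosomal protein gene Rps6 (1.04) and the S6 kinase gene Rps6kb1 (0.57), and the FoxO factor gene Foxo4 fell (-0.68). Rps6 has processed copies in the genome, so its level is uncertain.

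Outside that list, 8 other pathway genes changed in denervated against innervated WT. Among the inhibitors 1 of 16 rose and 1 fell. Grb14, an adaptor that inhibits the insulin receptor, was at 4.04 and 1.24 FPKM in denervated WT, against 31.8 and 32.9 FPKM in innervated WT (log2 -3.55 ± 0.55, 11.7-fold lower). Its log2 change was -4.65 without denervated WT replicate 1 and -2.95 without replicate 2. Deptor, which inhibits mTOR, was at 5.51 and 6.13 FPKM in denervated WT, against 3.23 and 2.75 FPKM in innervated WT (log2 1.05 ± 0.20). In the growth hormone axis 2 of 6 fell, the receptor gene Ghr (log2 -1.01) and its kinase gene Jak2 (-1.09). Of the adaptors and PI3 kinase genes, Shc1 (log2 0.78) and Pdpk1 (0.82) rose and Pik3ca (-0.48) fell, 3 of 10. Igf2r, which clears IGF2, rose (log2 1.06), 1 of 2 in its list. The ligand Igf2, the protease gene Htra1 and Stc2, which encodes a stanniocalcin that inhibits PAPP-A, did not pass. The adjusted p of these 15 calls ran up to 0.0451 (Pik3ca), and none of the 15 was called without innervated WT replicate 1 or without replicate 2. Shc1, Pdpk1 and Pik3ca were also lost under at least 4 of the 13 alternatives that keep all libraries of the groups compared, Foxo4 with scaling by library totals and Rps6kb1 with only the 4 libraries compared. Without innervated WT replicate 1 or 2, 3.82% and 1.65% of all genes were called. Without denervated WT replicate 1 the pathway calls came to 26 of 55, in a fit that called 43.7% of all genes. With the runs as a block the calls came to 20, with Pik3r2 (adjusted p = 0.0155), Igfbp2 (0.0239), Pik3r3 (0.0303), Trim72 (0.0333) and Socs3 (0.0480) past the threshold as well.

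Between the denervated groups, none of the 55 genes passed edgeR's test, and DESeq2 and limma called none. Over all genes these tools called 5, 181 and 33. An unadjusted p under 0.05 was found for 5 of the 55, against 6.11% of all genes tested. They were Igfbp2, Htra1, Socs2, Cish and Rps6kb1, all lower in DKO-labelled libraries. Cish, a feedback inhibitor of cytokine and growth hormone signalling, was at 2.30 and 1.78 FPKM in DKO-labelled, against 13.9 and 3.72 FPKM in denervated WT (log2 -2.05 ± 0.72, edgeR adjusted p = 0.723). The difference was -0.81 without denervated WT replicate 1 and -2.70 without replicate 2. Htra1, a secreted protease of binding proteins, was at 5.15 and 6.10 FPKM in DKO-labelled, against 8.67 and 17.2 FPKM in denervated WT, and was called only without denervated WT replicate 1.

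Against innervated WT, 8 pathway genes rose and 10 fell in DKO-labelled libraries, 32.7% of the 55 tested against 31.4% of all genes. Grb14 was at 2.12 and 1.26 FPKM in DKO-labelled, against 31.8 and 32.9 FPKM in innervated WT (log2 -4.21 ± 0.57, 18.5-fold lower, edgeR adjusted p = 0.00447), and was called in all 19 alternatives. In the growth hormone axis 4 of 6 fell, Ghr (log2 -0.98), Jak2 (-1.10), and the feedback inhibitors Socs2 (-0.84) and Cish (-2.59). Igf2 fell by 1.76 ± 0.49 on the log2 scale, and without innervated WT replicate 1 the change was -1.02 (adjusted p = 0.209). Its level is uncertain because it overlaps the antisense gene Igf2as at the same locus. Among the others that fell were Pik3ca (log2 -0.66), Pik3r2 (-1.49) and Foxo4 (-0.86). Those that rose were Deptor (log2 1.47), Igf2r (1.27), Akt2 (1.25), Mtor (1.29), Eif4ebp1 (2.10), Rps6 (1.09), Akt1 (0.72) and Fbxo40 (0.62), which targets IRS1 for degradation. The change of Cish was -1.61 without innervated WT replicate 2 (adjusted p = 0.209). Without innervated WT replicate 1 the pathway calls came to 4, and without replicate 2 to 2, in fits that called 7.24% and 5.40% of all genes. Without DKO-labelled replicate 1 they came to 8 and without replicate 2 to 7, beside 16.9% and 9.83% of all genes. Without denervated WT replicate 1 or 2, which belong to neither group compared but share the fit, they came to 30 and 29, where each fit called 45% of all genes. Cish and Fbxo40 were also lost with limma at each pseudocount run, Cish also after quantile normalization and Fbxo40 with the authors' factor per library. Igf2 was lost with library totals and with limma at a pseudocount of 0.1. Socs2, Pik3ca and Pik3r2 were lost with library totals, Pik3r2 also with upper-quartile scaling and with a mean FPKM minimum of 2, and Akt1 with limma at a pseudocount of 0.1. With the runs as a block the calls came to 22, with Trim72 (adjusted p = 0.0365), Shc1 (0.0421), Pik3r3 (0.0464) and Socs3 (0.0499) past the threshold as well.

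**Figure D4:**
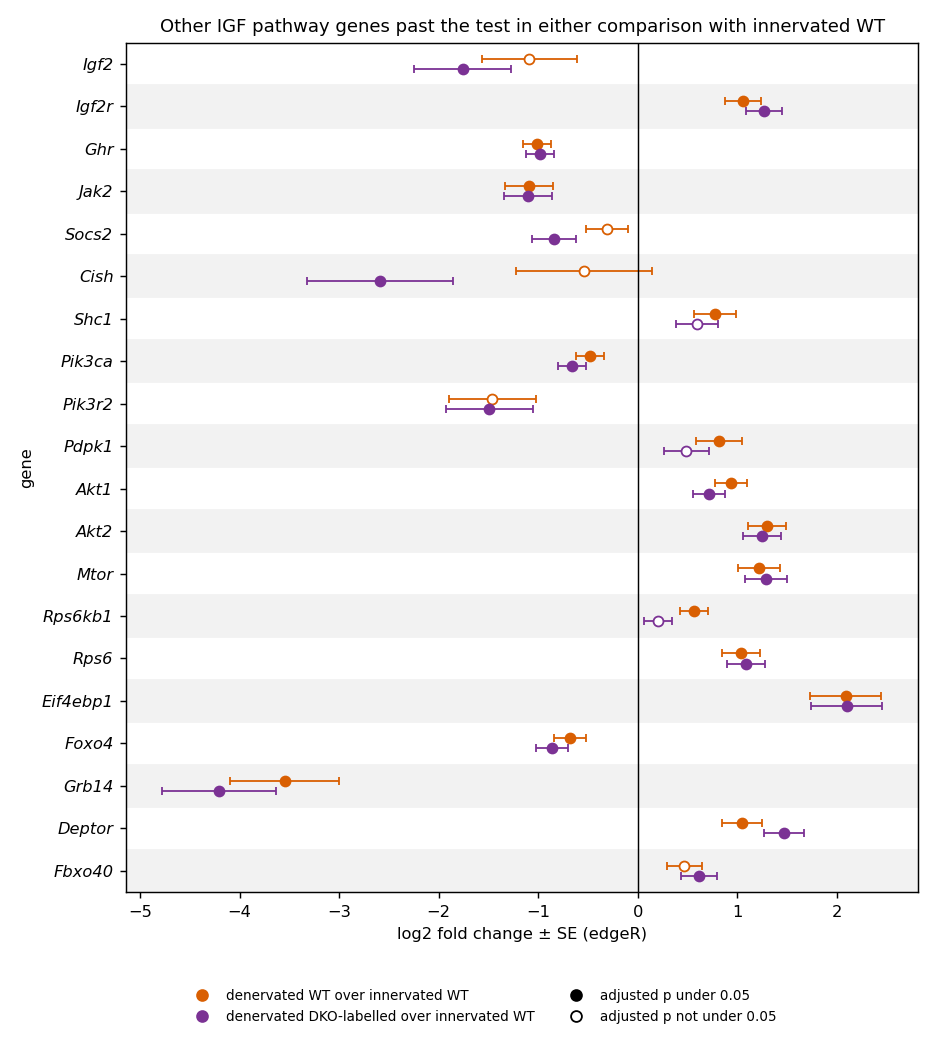
Log2 fold change ± SE (horizontal axis, edgeR) of 20 of the listed IGF pathway genes called in either comparison with innervated WT, with filled points for an adjusted p under 0.05. Grb14 lies farthest to the left, at -4.21 in DKO-labelled and -3.55 in denervated WT, and Eif4ebp1 farthest to the right, at 2.10 and 2.09.

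Genes whose pattern over the 6 libraries was nearest to each called gene were ranked by the root mean square difference of centred log2(FPKM + 0.5). Only genes of mean FPKM of at least 5 were ranked, leaving out predicted and unnamed transcripts. That made 6509 genes for Irs1 and 6508 for Irs2 and Igfbp6. Irs1 itself had a mean of 3.17 FPKM, and the added 0.5 shrinks differences more at low levels. Nearest to Igfbp6 were Cdkn1c (0.0767), which encodes a cyclin-dependent kinase inhibitor, Tpm1 (0.0969), a tropomyosin, and Aldh4a1 (0.119), a proline-degrading dehydrogenase. Tpm1 was at 1520 and 1270 FPKM in DKO-labelled, 2180 and 2000 FPKM in denervated WT and 4660 and 5230 FPKM in innervated WT. Nearest to Irs1 were Aldh9a1 (0.109), Anxa6 (0.167) and Gpam (0.185). Nearest to Irs2, at larger distances, were the Krüppel-like factor gene Klf2 (0.501), Slc25a25 (0.608) and Klf4 (0.622). Klf2 was at 9.32 and 5.24 FPKM in DKO-labelled, 7.15 and 7.14 FPKM in denervated WT and 17.5 and 47.9 FPKM in innervated WT, and innervated WT replicate 2 was the highest library for all 3 neighbours of Irs2.

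Markers of some other cells of the muscle also changed. Their calls in denervated against innervated WT stand against 28.7% of all genes tested. The macrophage (14.3%), fibro-adipogenic progenitor (14.3%) and satellite cell (20.0%) lists lay below that share, and the other lists above it. In denervated against innervated WT, 8 of 8 endothelial markers fell, with a summed level of 83.1 and 76.5 FPKM against 170 and 201 FPKM, and the DKO-labelled libraries were at 87.4 and 61.6 FPKM. Of the smooth muscle and pericyte markers 5 of 6 fell (87.3 and 72.2 FPKM in denervated WT, 169 and 174 FPKM in innervated WT), and all 4 adipocyte markers fell (summed level at most 8.13 FPKM in denervated WT, at least 31.2 FPKM in innervated WT). Fibro-adipogenic progenitor markers summed to 561 and 380 FPKM in denervated WT, against 915 and 708 FPKM in innervated WT. In the main test 1 of 7, Dcn, fell. With the runs as a block 5 of 7 were called, in a fit that called 36.4% of all genes. Muscle fibre markers fell in 4 of 7, among them Ckm and Myh7. Macrophage markers summed to 238 and 193 FPKM in denervated WT and 211 and 120 FPKM in innervated WT, and Cd68 alone of 7 rose. Lyz2 made up most of that sum, at 180 and 139 FPKM in denervated WT and 172 and 93.0 FPKM in innervated WT. Neutrophil markers summed to 92.1 and 121 FPKM in DKO-labelled, 29.7 and 71.3 FPKM in denervated WT and 4.08 and 12.3 FPKM in innervated WT. S100a8 made up most of the sum in the denervated libraries, at 86.1 and 119 FPKM in DKO-labelled and 25.2 and 57.9 FPKM in denervated WT. S100a9 overlapped between the groups, at 5.96 and 2.39 FPKM in DKO-labelled, 4.42 and 13.4 FPKM in denervated WT and 1.93 and 6.55 FPKM in innervated WT. Mpo had 1 fragment in denervated WT replicate 1 and 0 in every other library, and was not tested. In denervated against innervated WT, 1 of 2 neutrophil markers tested rose, S100a8. Schwann cell markers fell in 3 of 5, tendon markers rose in 1 and fell in 3 of 6, and 1 of 5 satellite cell markers rose. With the runs as a block, 5 of 7 muscle fibre, 2 of 7 macrophage, 5 of 6 tendon and 4 of 5 Schwann cell markers were called. Between the denervated groups, edgeR and DESeq2 called none of these markers. An unadjusted p under 0.05 was found for 5 of them, Cdh15, Cd68, Fmod, Cidec and S100a8, and for 6.11% of all genes tested. The part of any of these cells in the levels of Igfbp6, Irs1, Irs2 or Igfbp3 was not tested.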

How the data were processed

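Polyadenylated RNA was measured in 6 libraries, grouped by their titles. Replicates were numbered by accession, since the titles number none. No label says that replicates were separate animals, so p-values measure only the spread between libraries, and it may be technical. Libraries of a group differed beyond counting noise (chi-square per degree of freedom 37.7 to 200). The submitters' processing notes name Cuffdiff 2.0.2, TopHat2 2.0.3, Bowtie2 2.0.0.7, Trim Galore 0.2.1, CASAVA 1.8.2 and the mm9 build. The annotation and the strand of counting were not given in the sources used here, so levels of overlapping or antisense genes and close copies are uncertain.

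Per the file headers, the authors deposited FPKM, a signal of externally scaled fragments (raw fragments times 1 factor a library, 0.6643 to 1.5641) and raw fragments. The deposited raw fragments are estimated counts, of which 85.0% to 85.6% of values above 0 were whole within 1e-06. FPKM follows the authors' library factor and not the library's total. Each table lists every entry 3 times. Repeats were dropped, leaving 21805 entries, and entries of 1 symbol were summed to 21572 symbols. The files do not say whether coordinates start at 0 or 1.

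The estimated counts were rounded and tested with edgeR 4.0.16 (R 4.3.3) by its quasi-likelihood test with TMM scaling and group means as the only terms, fitted to all 6 libraries and to genes of mean FPKM of at least 0.5. The SE was taken as the log2 change over the root of F. The fit had 3 residual degrees of freedom, and the common coefficient of biological variation was 0.222. The code was tested on simulated data. Alternatives were DESeq2 1.42.0, limma 3.58.1 on log2(FPKM + pseudocount), other scalings and filters, a block and leaving out each library. The sample numbers in the titles form 2 consecutive runs, and each run holds 1 library of every group. Deviations from the group means correlated within runs at 0.23, 0.15 and 0.45 across 12247 genes. The main fit held no term for the runs, and values are from that unpaired fit unless another is named. The runs entered as a block in an alternative fit, and the blocked value is given where it changes a call. This block comes from the numbers and the data, since the labels do not say what a run is.

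The 10 genes and the lists were chosen with earlier results of these data known. Genes named outside the 10 were the called genes of each pathway list, those that only the block called, the tested members of a list with none called, those at an unadjusted p under 0.05 where none was called, the 3 nearest patterns per called gene, the genes of the label check and members of the marker lists. A gene that this rule selects is not reported here, though the counts include it. Promoters are from RefSeq on GRCm38.p6, matched by symbol for 9 of 10 genes, and no coordinate was converted between builds.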

Additional observations from a re-analysis of the deposited data

How the results depend on the processing

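Of 10 genes, the count called in denervated against innervated WT was 2, and it was 4 with no filter on low values (Irs2 and Igfbp3 added) and 0 to 5 when a library was left out. It was 0 without innervated WT replicate 2, 1 without replicate 1 (Irs2), 1 without denervated WT replicate 2 (Igfbp6) and 5 without denervated WT replicate 1, in fits that called 1.65%, 3.82%, 23.1% and 43.7% of all genes. Which of the 10 genes were called also differed between these fits, and the cause was not tested. In DKO-labelled against innervated WT it was 2, 1 with limma at a pseudocount of 0.1, and 1 to 3 when a library was left out. For other pathway genes the count in denervated against innervated WT was 15, 23 with library totals only (20 higher, 3 lower, against 10 and 5), and 0 to 26 when a library was left out. It was 18 in DKO-labelled against innervated WT, 29 with only the 4 libraries compared, and 2 to 30 when a library was left out. Between the denervated groups it was 0, and 0 to 1 when a library was left out. Scaling by library totals moved the median of all genes to 0.27 in denervated WT and to 0.33 in DKO-labelled against innervated WT, on the log2 scale. The fit with the runs as a replicate block gave 3 called genes of the 10 in denervated against innervated WT and 2 in DKO-labelled against innervated WT, and it changed no call of the 10 genes other than those of Igfbp3, Irs1 and Irs2. For other pathway genes it gave 20 and 22 calls, with no call lost.

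Among the alternatives other than leaving out a library, no value with a sign opposite to that of the main fit was called. In denervated against innervated WT, Insr was 0.01 with library totals, and Igfbp5 was -0.44, -0.43 and -0.45 with limma at pseudocounts of 0.5, 1 and 0.1, -0.44 after quantile normalization and -0.23 with the replicate block. Between the denervated groups, Igf1r was 0.02 with upper-quartile scaling and 0.03 with library totals. In DKO-labelled against innervated WT, with library totals, Igf1 was 0.10, Insr 0.00, Igfbp3 0.20 and Igfbp7 0.25, and Igf1 was 0.05 after quantile normalization. When a library was left out, log2 values in denervated against innervated WT ran from -0.75 to 0.19 for Igf1, -0.21 to 0.74 for Igfbp4 and -1.70 to 0.83 for Igfbp5. Between the denervated groups they ran from -0.24 to 0.53 for Igf1, -0.16 to 0.10 for Igf1r, -0.15 to 0.00 for Insr, -0.39 to 1.34 for Irs1, -0.39 to 0.65 for Igfbp4, -0.18 to 2.35 for Igfbp5 and -0.04 to 0.93 for Igfbp7. In DKO-labelled against innervated WT they ran from -0.57 to 0.28 for Igf1, -0.06 to 0.21 for Igf1r, -0.72 to 0.34 for Igfbp3, -0.04 to 0.81 for Igfbp4 and -0.36 to 0.17 for Igfbp7. The cause was not tested. Where an arm had 1 library left, that library is assumed to vary like the other groups. With 2 libraries a group, the spread rests on few values, and intervals of log2 differences near 0 are wide.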
